A study of Mus musculus with 2 samples.

Results

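The miRs miR-21a, miR-146a, miR-146b and miR-155 are known for their links to inflammation, and their levels were examined in mouse sperm. They were chosen by name. The name of each entry in the deposited count tables was stripped of its species prefix and its arm, and the entries left with one of these 4 names were kept. This gave 8 of the 1886 mature miR entries, 1 for the 5p arm and 1 for the 3p arm of each hairpin. None of the 8 entries joined several miRs. Small RNA had been sequenced from sperm of naive wild-type C57BL/6J mice aged 3 months, in 2 libraries that the study describes as independent biological replicates. Both libraries therefore have the same condition, no allele or agent sets them apart, and no contrast between conditions could be tested. The sperm had swum out of the dissected epididymis and had been treated with hypotonic buffer to lyse other cells. How many mice gave each library was not given in the sources used here. The names of the deposited tables hold the string POSTTREAT, and what it refers to was not resolved.

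A miR is cut from an RNA hairpin as a short duplex, of which usually one arm is kept by an Argonaute protein and directs it to messenger RNAs that match its seed, the bases 2 to 8 from the 5′ end. When Toll-like receptors or cytokine receptors activate the transcription factor NF-κB in immune cells, the precursors of miR-146a and miR-155 are among the transcripts that rise. miR-146a and miR-146b dampen the same pathway by repressing the adaptors Traf6 and Irak1, whereas miR-155 favours inflammation by repressing Socs1, an inhibitor of cytokine signaling. miR-21 represses Pdcd4 and is abundant in many tissues, epithelia included, so that it marks no single cell type.

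The mature sequences follow, from 5′ to 3′ and with the seed in capitals, since the seeds group these miRs and the 3′ ends are what sets the miR-146 pair apart. All 8 entries were matched by name to RefSeq (GRCm38.p6), the build named in the submitters' processing notes.
miR-21a-5p: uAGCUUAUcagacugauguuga
miR-21a-3p: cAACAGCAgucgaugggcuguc
miR-146a-5p: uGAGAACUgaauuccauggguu
miR-146a-3p: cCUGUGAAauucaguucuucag
miR-146b-5p: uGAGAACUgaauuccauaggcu
miR-146b-3p: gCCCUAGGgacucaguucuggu
miR-155-5p: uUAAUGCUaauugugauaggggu
miR-155-3p: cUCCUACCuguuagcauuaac

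The 5p arms of miR-146a and miR-146b share their seed and their first 17 bases, and differ by G18A and U21C, counted from the 5′ end with the base of miR-146a first. A read that ended within these 17 bases would fit both, and reads from 15 nucleotides on had been kept. Compared position by position without alignment, the 3p arms of this pair have the same base at 4 of 22 positions. Both hold the run ucaguucu, but not at the same positions, so they are more alike than this count shows. miR-21a-5p and miR-155-5p have seeds of their own among the members. All 4 of the 5p arms start with U, and none of the 3p arms does. Of the 1886 entries, 1608 had a mature sequence in RefSeq, and among these 1 entry outside the members shared a seed with any of them.
miR-21c: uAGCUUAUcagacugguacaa
It has the first 15 bases of miR-21a-5p. miR-21c had 0 reads in both libraries.

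The hairpins lie at separate sites of GRCm38. Mir21a (ENSMUSG00000065455.1) lies on the minus strand at chr11:86584067-86584158, within exon 12, the last exon, of the protein-coding gene Vmp1, in its untranslated part. Mir146 (ENSMUSG00000065601.1), the hairpin of miR-146a, lies on the minus strand at chr11:43374397-43374461 and overlaps no other annotated gene. Mir146b (ENSMUSG00000070127.2) lies on the plus strand at chr19:46342762-46342870, in intron 1 of the protein-coding gene Mfsd13a. Mir155 (ENSMUSG00000065397.1) lies on the plus strand at chr16:84714140-84714204, within exon 2 of its long non-coding host Mir155hg.

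The tables hold 4049599 miR reads for replicate 1 and 5648067 for replicate 2. Levels are given as CPM, the reads of a miR per 1000000 miR reads of its library, and 3 reads correspond to 0.741 CPM in replicate 1 and 0.531 CPM in replicate 2. miR-10a-5p and miR-10b-5p together took 78.0% (replicate 1) and 80.4% (replicate 2) of the total, so that every other miR was measured within the remainder. Intervals are Wilson 95% intervals. They cover counting error only, with each read of a library taken as independent. As the reads carry no molecular identifiers, copies of a molecule were not told apart, and the true counting error may be larger.

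Of the 8 entries, 5 were detected, with 1 read or more in both libraries, and 3 had no read in either. Over all entries of the tables, 20% were detected by this rule and 70.9% had no read at all. In replicate 1 the 8 entries together took 11642 reads, and in replicate 2 they took 13991, a mean of 2676 ± 281 CPM (SD, n = 2). This amounted to 0.287% (0.282% to 0.293%) and 0.248% (0.244% to 0.252%) of the miR reads. The order of the libraries turned with the scaling. The sum was 2875 CPM in replicate 1 against 2477 in replicate 2, but 2546 against 2797 after TMM scaling, which centres most entries instead of the total, and 1779 against 1825 per 1000000 of all reads in the tables. In such bulk libraries, fewer cells of a type and less of a miR per cell cannot be told apart.

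miR-21a-5p, the kept arm of miR-21 in most tissues, was the most abundant member. Its 5824 reads in replicate 1 gave 1438 CPM (1402 to 1476). The 8288 reads in replicate 2 gave 1467 CPM (1436 to 1499). The mean was 1453 ± 20.7 CPM (SD, n = 2), and miR-21a-5p ranked 25th among the 378 entries with a read in both libraries. It was the only member above 1000 CPM in both libraries, a level that 1.54% of all entries reached. Even so, miR-10b-5p was counted 363 times as often in replicate 1 and 390 times as often in replicate 2.

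miR-146a-5p, which dampens Toll-like receptor signaling, followed at 1054 CPM (1023 to 1086, from 4267 reads) in replicate 1 and 735 CPM (713 to 758, from 4153 reads) in replicate 2. Its mean was 894 ± 225 CPM (SD, n = 2) and its rank was 33rd. miR-146b-5p, which has the same seed but a gene of its own, stood at 374 CPM (355 to 393, from 1513 reads) and 266 CPM (253 to 280, from 1505 reads). Its mean of 320.0 ± 75.8 CPM (SD, n = 2) ranked 45th. Both were lower in replicate 2 by more than the counting error, on the CPM scale.

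miR-155-5p, the arm that represses Socs1, lay far below the 5p arms of the other 3 hairpins. Replicate 1 gave 3.95 CPM (2.43 to 6.42) from 16 reads, and replicate 2 gave 3.19 CPM (2.02 to 5.04) from 18 reads. The mean of 3.57 ± 0.540 CPM (SD, n = 2) gave rank 229th, below the median of 7.02 CPM over the 378 entries. For every read of miR-155-5p, there were 364 (replicate 1) and 460 (replicate 2) of miR-21a-5p, and 94.6 and 83.6 of miR-146b-5p.

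**Figure D1:**
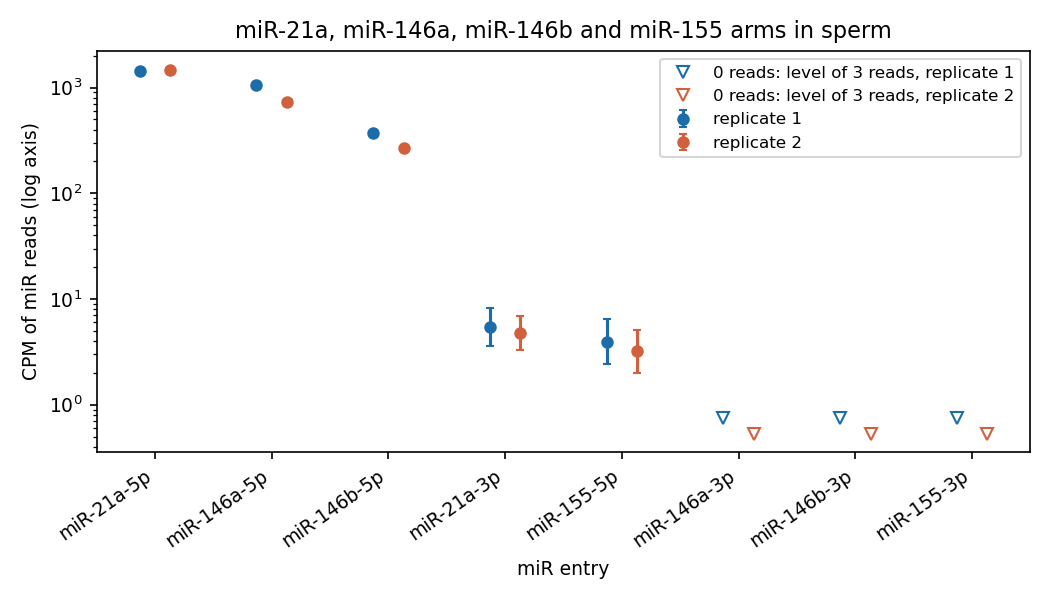
Level of each arm of miR-21a, miR-146a, miR-146b and miR-155 in CPM of miR reads (log axis) in the 2 sperm libraries, with Wilson 95% intervals, which are smaller than the points for the 3 most abundant arms. The 5p arms of miR-21a, miR-146a and miR-146b lie between 266 and 1467 CPM, miR-21a-3p and miR-155-5p between 3.19 and 5.43 CPM, and open triangles mark the level of 3 reads for the 3 entries with 0 reads.

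The order of the levels was the same in both libraries: miR-21a-5p, miR-146a-5p, miR-146b-5p, miR-21a-3p and miR-155-5p. In the steps down to miR-21a-3p the values of neighbours did not overlap, as the lowest value of the higher entry exceeded the highest value of the lower one. The values of miR-21a-3p and miR-155-5p did not overlap either, but their counting intervals did in each library, and the ratio of miR-155-5p to miR-21a-3p was 0.727 in replicate 1 and 0.667 in replicate 2. These 2 levels were not told apart at this depth. No p-value was computed for this order.

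The counted reads of miR-21a came almost wholly from the 5p arm, and those of miR-146a, miR-146b and miR-155 came only from it. For miR-155 this rested on 16 and 18 reads. For miR-21a, 5p reads made up 99.6% (99.4% to 99.7%) of 5846 reads in replicate 1 and 99.7% (99.5% to 99.8%) of 8315 reads in replicate 2. miR-21a-3p reached 5.43 CPM (3.59 to 8.23) on 22 reads and 4.78 CPM (3.29 to 6.96) on 27 reads, a mean of 5.11 ± 0.461 CPM (SD, n = 2) and rank 205th. Each read of the 3p arm thus stood against 265 reads of the 5p arm in replicate 1 and 307 in replicate 2.

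The 3p share of miR-21a was 0.376% (0.249% to 0.569%) in replicate 1 and 0.325% (0.223% to 0.472%) in replicate 2.

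miR-146a-3p, miR-146b-3p and miR-155-3p were listed at 0 in both libraries. Whether reads of these arms could be counted on their entries was not resolved, and the limits given here hold only if they could. Beside 4267 and 4153 reads of miR-146a-5p, a count of 0, taken as fewer than 3 reads, then allows a 3p share of up to 0.0703% in replicate 1 and 0.0722% in replicate 2. For miR-146b the counts allow up to 0.198% and 0.199%. For miR-155, with 16 and 18 reads on the hairpin, they allow up to 18.8% and 16.7%. The upper Wilson bounds were wider, at 0.08995% and 0.09241% for miR-146a, 0.253% and 0.255% for miR-146b, and 19.4% and 17.6% for miR-155.

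An arm at 0 was common in these tables. Of 119 hairpins with both arms listed and 100 reads or more over both libraries, 26.9% had 1 arm at 0 in both libraries, and of the 58 hairpins with at least 1000 reads it was 22.4%, namely miR-146a, miR-146b and 11 others. The largest of these was miR-143, with 515000 reads on its 3p arm and 0 on its 5p arm. In the other 45 hairpins with at least 1000 reads the minor arm held from 0.00368% to 49.3% of the reads. Of the 119 hairpins, 44.5% had a smaller share on the minor arm than miR-21a, and the median share was 0.621%. Both values include the hairpins with an arm at 0. The 5p arm was the more abundant one in 56.3% of the 119 hairpins.

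**Figure D2:**
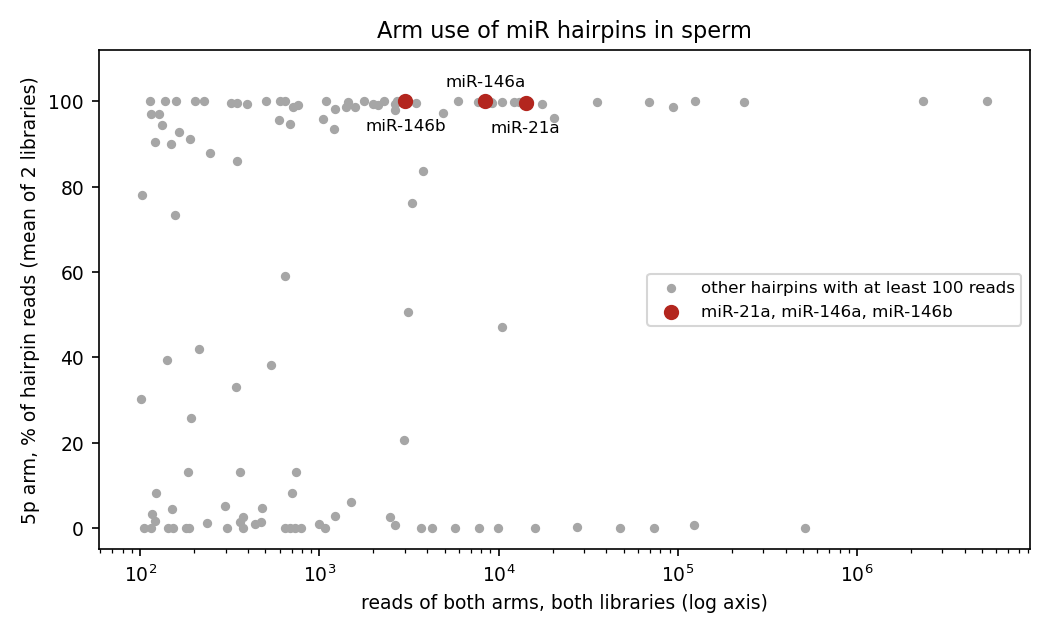
Share of the 5p arm (% of hairpin reads, mean of the 2 libraries) against the reads of both arms in both libraries (log axis), for 119 hairpins with at least 100 reads. Most hairpins lie near 0% or 100%, and miR-21a at 99.6%, miR-146a at 100% and miR-146b at 100% (red) lie at the upper edge. miR-155, with 34 reads, is not drawn.

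Between the libraries, miR-21a-5p and the miR-146 pair had ratios that differed by more than counting error, which is not the spread between replicates. The log2 ratio of replicate 2 to replicate 1, computed with 1 CPM added to each value, was 0.03 for miR-21a-5p (-0.02 to 0.08 from counting error), -0.52 for miR-146a-5p (-0.58 to -0.46) and -0.49 for miR-146b-5p (-0.59 to -0.38). miR-21a-3p had -0.15 (-0.97 to 0.66) and miR-155-5p had -0.24 (-1.21 to 0.73), too few reads to give a direction. None of the 5 entries differed more than 2-fold between the libraries, beside 19.8% of the 323 entries that had 10 reads or more over both libraries. Among these 323, 16.7% were more than 2-fold lower in replicate 2 and 3.1% more than 2-fold higher. The median log2 ratio over the 323 entries was -0.25, with quartiles of -0.74 and 0.14, and the median of the 5 members was -0.24. All 5 members lay between these quartiles.

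These ratios depend on what the libraries are scaled to. TMM scaling moved the median of all 323 entries from -0.25 to 0.06. miR-21a-5p then stood at 0.38, miR-146a-5p at -0.17 and miR-146b-5p at -0.14. A scaling shifts all ratios of abundant entries alike, so the place of a member against the median says nothing more under TMM. miR-155-5p and miR-21a-3p, whose counting intervals span 0 on the CPM scale, stood at 0.03 and 0.14.

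**Figure D3:**
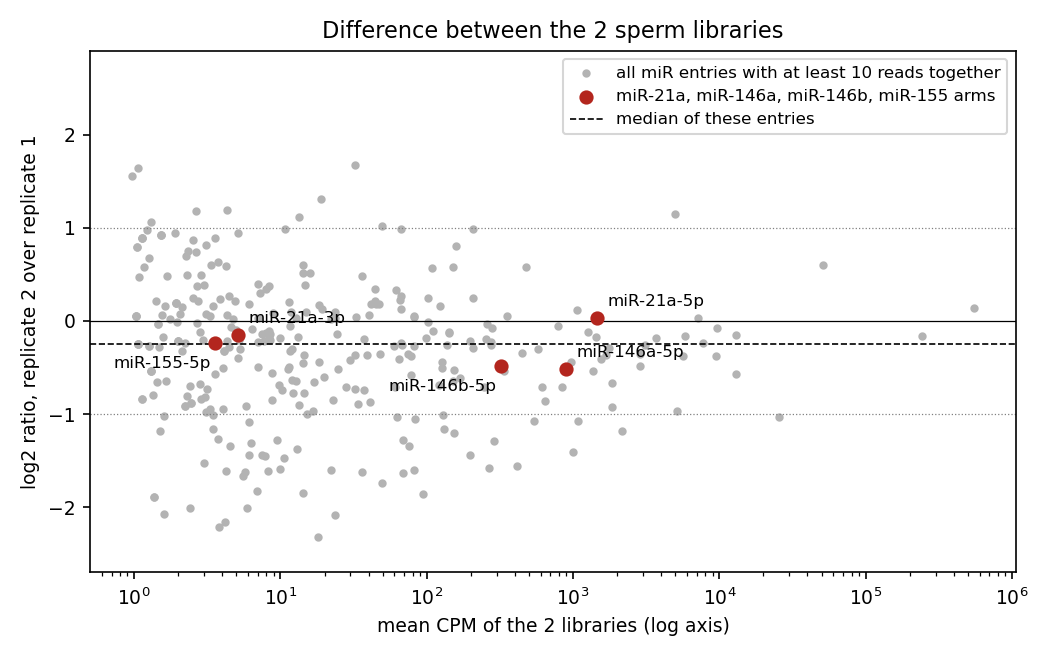
Log2 ratio of replicate 2 to replicate 1 against the mean CPM (log axis) for the 323 miR entries of 10 reads or more over both libraries. Dotted lines mark a 2-fold difference and the dashed line the median of -0.25. All 5 labelled arms lie between the dotted lines, miR-21a-5p at 0.03 and miR-146a-5p and miR-146b-5p at -0.52 and -0.49.

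Ratios within a library need no scaling. miR-21a-5p was counted 1.36 times as often as miR-146a-5p in replicate 1 and 2.0 times as often in replicate 2, a log2 difference of 0.55 (0.47 to 0.63 from counting error). By contrast, the ratio of miR-146a-5p to miR-146b-5p was 2.82 in replicate 1 and 2.76 in replicate 2, a log2 difference of -0.03 (-0.15 to 0.09). Of the reads of the miR-146 pair, miR-146a-5p took 73.8% (72.7% to 74.9%) and 73.4% (72.2% to 74.5%). The paralogs, encoded on chromosomes 11 and 19, thus kept their ratio within counting error, while both were lower relative to miR-21a-5p in replicate 2. How far such ratios spread between replicates could not be measured with 2 libraries. Reads that fit both could have been split between them, and how such reads were handled was not given in the sources used here. Of all reads on the 8 entries, miR-21a-5p took 50.0% (49.1% to 50.9%) in replicate 1 and 59.2% (58.4% to 60.0%) in replicate 2.

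The entries closest to each member in level were found by the distance of log2(CPM + 1) over the 2 libraries. For miR-21a-5p they were miR-100-5p, with 1524 and 1351 CPM at a distance of 0.14, and miR-183-5p, with 1321 and 1219 CPM at 0.29. For miR-146a-5p they were let-7b-5p, with 1115 and 823 CPM at 0.18, and miR-429-3p, with 1033 and 633 CPM at 0.22. For miR-146b-5p they were let-7d-5p, with 400.3 and 275 CPM at 0.11, and miR-29a-3p, with 299 and 249 CPM at 0.34. Nothing is read from this likeness beyond the levels, as it rests on 2 libraries. For miR-21a-3p the closest were miR-30c-1-3p and miR-28a-3p, and for miR-155-5p miR-27b-5p and miR-3963, all with at most 27 reads in a library.

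A list of 15 other miRs linked to inflammation was measured beside the members. It holds miRs that rise on Toll-like receptor signaling (miR-9-5p, miR-132-3p, miR-147-3p), the cluster of miR-99b, let-7e and miR-125a, and miRs reported to act on this signaling, such as miR-125b, let-7i and miR-181b. Of the 15, 14 had a read in both libraries, and miR-147-3p had 0 and 1 read. They summed to 14940 CPM in replicate 1 and to 14140 in replicate 2, and miR-99b-5p alone gave 7022 and 7178 CPM of it. miR-125a-5p had 3935 and 3471 CPM and miR-125b-5p had 1933 and 1582 CPM. These 3 entries of the list lay above miR-21a-5p in both libraries. let-7i-5p, with 1027 and 1115 CPM, lay between miR-21a-5p and miR-146a-5p by its mean.

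On the CPM scale, the median log2 ratio of the 14 entries was 0.05, and 5 of them were lower in replicate 2, beside 65.9% of the 323 entries. The sum and the counts of this list were not computed under TMM scaling. More than 2-fold differences were seen for 2 of the 14, beside 19.8% of the 323. miR-9-5p had 408 and 166 CPM in replicates 1 and 2, and miR-31-5p had 38.5 and 8.32 CPM. miR-132-3p, which like miR-155 is induced by Toll-like receptors, was also rare, with 3.21 and 7.08 CPM. miR-124-3p, which restrains macrophages and microglia, had 8.89 and 7.97 CPM.

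**Figure D4:**
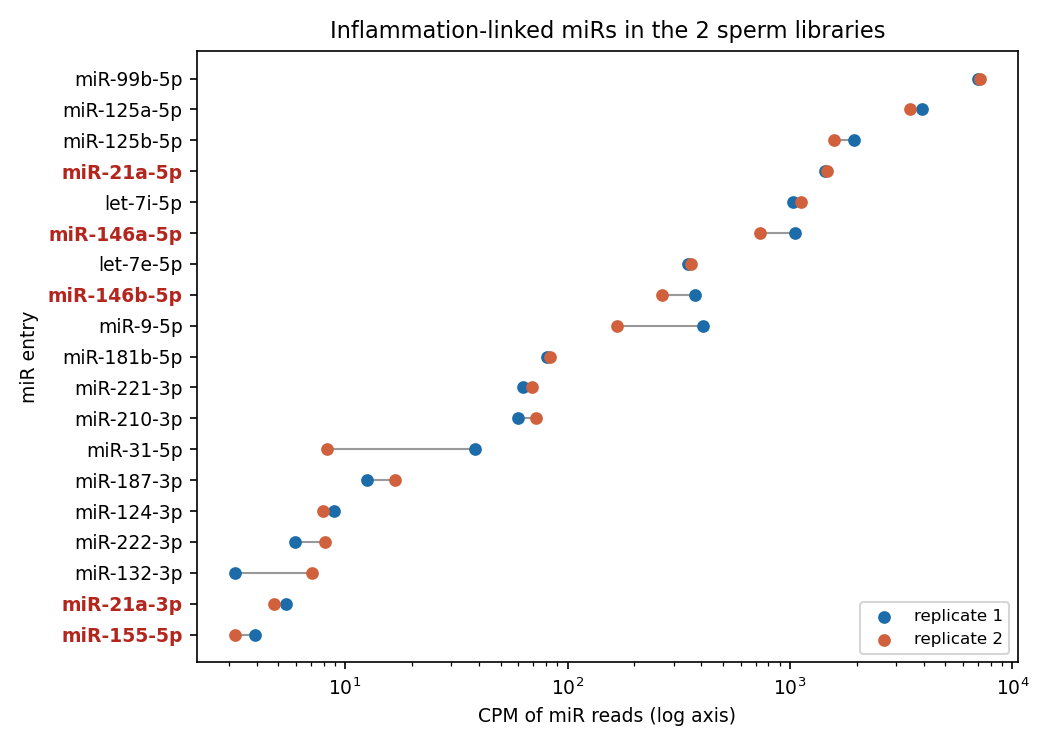
Level in CPM of miR reads (log axis) of 14 other inflammation-linked miRs and of the 5 detected arms of miR-21a, miR-146a, miR-146b and miR-155 (red names) in the 2 sperm libraries. Lines join the 2 values of an entry. miR-99b-5p is highest at 7022 and 7178 CPM and miR-155-5p lowest by its mean of 3.57 CPM, and miR-31-5p shows the widest gap at 38.5 and 8.32 CPM.

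The 4 miRs are known from blood, immune or epithelial cells, so markers of these cells were measured in the same libraries. Of 8 entries for blood and immune cells all were detected, with a sum of 3349 CPM in replicate 1 against 7220 in replicate 2. This rested largely on the joined entry of miR-486b-5p and miR-486a-5p, an erythroid miR, without which the sum was 246 and 329 CPM. The erythroid miR-451a and miR-144-3p were higher in replicate 2 as well, with 44.2 and 88.9 CPM and with 14.8 and 49.6 CPM. miR-223-3p, which marks neutrophils and macrophages, had 15.8 and 9.74 CPM, and miR-142a-3p and miR-142a-5p, found in all blood lineages, had 4.20 and 4.43 CPM and 93.1 and 110 CPM. miR-150-5p, of mature lymphocytes, had 39.3 and 41.1 CPM. None of the 8 was at 0. miR-21a-5p, miR-146a-5p and miR-146b-5p thus lay above every entry of this list but the joined one in both libraries. miR-155-5p lay below all of the list by its mean, but the values of miR-142a-3p fell within its counting intervals in both libraries, so these levels were not told apart. Without the 3 erythroid entries (miR-486, miR-451a and miR-144-3p), left out after their values were seen, the other 5 summed to 187 and 191 CPM, and 2 of them, miR-223-3p and miR-342-3p, were lower in replicate 2.

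The 7 epithelial markers were all detected, with sums of 10780 and 8833 CPM in replicates 1 and 2, or 2420 and 1756 CPM without miR-141-3p. Of these, 6 were lower in replicate 2, beside 65.9% of the 323 entries. The 6 entries for smooth muscle and stroma were all detected, at 41330 and 62570 CPM, or 478 and 678 CPM without miR-143-3p. All 6 were higher in replicate 2, whereas 65.9% of the 323 entries were lower. Germ cell miRs were present, with 8 of the 9 listed entries that the tables hold and a sum of 5478 and 2228 CPM. miR-741-3p was at 0, and 7 of the 8 detected were more than 2-fold lower in replicate 2, beside 16.7% of the 323 entries. The sums and counts of these cell type lists were made on the CPM scale only. They were not computed under TMM scaling, which turned the order of the libraries for the sum of the members. The part that these cells have in the levels of the members was not tested.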

How the data were processed

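Per the submitters' processing notes and the paper's methods, reads were trimmed with cutadapt 1.8.1, reads under 15 nucleotides were dropped, and the rest were mapped with Bowtie 1.1.2, first without mismatches to miR and piRNA sequences. HTSeq and the build GRCm38 are named too. The authors deposited whole-number read counts per mature miR entry, not normalized and not pooled. Which of the mapping steps fed the miR counts is not given in the sources used here. Mapping without mismatches would miss miRs with added or edited bases.

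Summary entries were left out of the totals, among them the reads assigned to no miR (38.1% in replicate 1 and 26.3% in replicate 2). CPM, means ± SD, Wilson intervals and counting intervals of log2 ratios (normal approximation) were computed in Python 3.11.15 with scipy 1.17.1 from 4049599 and 5648067 miR reads. TMM (edgeR 4.0.16) and DESeq2 1.42.0 scaling were alternatives. No p-values were computed.

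The members and lists were chosen with earlier results of these data known. The entries named were the 8 arms, entries sharing their seeds, the 2 closest in level to each member with 10 reads or more, 15 other inflammation-linked miRs, and cell type markers. Of 12 germ cell markers, 3 were not matched in the tables used here.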

Additional observations from a re-analysis of the deposited data

How the results depend on the processing

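The number of detected entries was 5 of 8 at minimums of 3, 5 and 10 reads or 1 CPM in each library, and 4 at 20 reads, where miR-155-5p no longer passed. The share of all entries at these minimums is not given here. The summed level of the 8 entries, 2676 CPM, was 1802 reads per 1000000 of all reads in the tables and 12840 reads per 1000000 miR reads without miR-10a-5p and miR-10b-5p; both alternatives only change the denominator. TMM and DESeq2 scaling gave 2672 and 2671 CPM, but they shift the 2 libraries in opposite directions, so that a mean can hardly move, while the order of the libraries turned, from 2875 and 2477 CPM to 2546 and 2797 under TMM. With 1 library at a time the sum ranged from 2477 to 2875 CPM and the 5p share of miR-21a from 99.6% to 99.7%. The 5p shares of miR-146a, miR-146b and miR-155 could only be 100% in each library, as their 3p entries had 0 reads in both. These shares are therefore no check of the result, and whether those 3p arms could be counted was not resolved. The number of members more than 2-fold apart between the libraries was 0 with filters of 1, 10 or 100 reads and under TMM and DESeq2 scaling. Of all entries passing these filters, 17.5%, 19.8% and 19.4% were more than 2-fold apart. Under TMM and DESeq2 scaling it was 18.9% and 19.2%. With so few members, a count of 0 does not set them apart from these shares.

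The log2 ratio of miR-21a-5p, 0.03, ranged from 0.03 to 0.38 over the scalings and pseudocounts, that of miR-146a-5p from -0.52 to -0.17 and that of miR-146b-5p from -0.49 to -0.14. miR-155-5p had too few reads for arm use or for a difference between the libraries to be resolved. No paired analysis was possible because both libraries belong to 1 group.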
